A study of Mus musculus with 8 samples.

Results

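The Hnf4 genes, Hnf4a and Hnf4g, were followed through RNA-seq libraries of mouse jejunal crypts. They are 2 of the 23951 genes in the deposited table, were chosen by name, and both passed the filter on low values that left 12084 genes for testing. All mice carried a BRAF-V600E f/+ allele, which switches on an activated BRAF kinase, and Villin-CreER(T2), a tamoxifen-dependent recombinase driven in intestinal epithelium. The BRAF group (3 libraries) had no further floxed gene, the SMAD4KO_BRAF group (3 libraries) was also Smad4 f/f, and the CDX2KO_BRAF group (2 libraries) was also Cdx2 f/f. Tamoxifen was injected on 4 days in a row and the crypts were taken 1 day after, so every group had both the activated allele and the recombinase, and no library without them was used here. Ages were not given in the labels. Smad4 encodes the common partner of the BMP and TGF-beta Smads, and Cdx2 encodes a homeobox factor of intestinal identity.

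HNF4 proteins are nuclear receptors that bind DNA as homodimers and recruit coactivators without needing a hormone. HNF4A is made in liver, intestine, kidney and pancreas, whereas HNF4G is most familiar from the intestinal epithelium, where the paralogs bind largely the same enhancers. Their known intestinal targets include brush border enzymes, microvillus proteins, apolipoproteins and enzymes of fatty acid oxidation, and SMAD4 and CDX2 are known to bind many of the same enhancers.

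The values were FPKM (fragments scaled by transcript length and by the size of the library), so levels of different genes can be set side by side. Per library, 10924 to 11570 genes had an FPKM of at least 1. The steps between low values put the libraries at 0.717 to 1.46 times the depth of 1 BRAF library, while absolute depth is unknown. Libraries are named by the number in their column, which starts from 0. Smad4 was 43.9 ± 2.62 FPKM (SD, n = 3) in BRAF and 8.93 ± 1.61 (n = 3) in SMAD4KO_BRAF libraries, a log2 difference of -2.19 (limma, adjusted p = 0.00163). Cdx2 went against its label. It was 155 and 121 FPKM in the libraries labelled CDX2KO_BRAF, above the 64.2 to 82.6 of the BRAF and the 75.1 to 93.1 of the SMAD4KO_BRAF libraries (0.86 higher than BRAF on the log2 scale, limma, adjusted p = 0.0213). Because an FPKM of the whole gene cannot tell transcripts with the floxed exons from those without, every direction below that involves this group rests on its label. The 8 pan-epithelial markers listed, among them Epcam and Cdh1, were all at 1 FPKM or more in every library. Under the CDX2KO_BRAF label, Cdh17 (-1.37) and Vil1 (-0.92) were called lower than in BRAF by limma. That was 2 of 8, beside 7.21% of all tested genes called lower. Neither call remained without BRAF library 0, without BRAF library 2, without the filter on low values or with only the 2 groups in the fit. These calls also rest on both CDX2KO_BRAF libraries, and leaving out either keeps only 1 in that group. The 8 markers summed to 5951 to 9298 FPKM in BRAF, to 5153 to 7501 in SMAD4KO_BRAF and to 6924 to 8235 where the label was CDX2KO_BRAF. Y-linked genes summed to 73.7 FPKM in BRAF library 0 and 76.9 in SMAD4KO_BRAF library 0, and to at most 0.0637 in the other 6 libraries, so both of those labelled CDX2KO_BRAF came from females.

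Hnf4a has a pair of alternative promoters, an upstream one known as P2 and a downstream one known as P1, and an FPKM per gene sums the transcripts of both. The 250 bases before each start are shown because all Hnf4a values below pool what starts there. They come from RefSeq (GRCm38.p6, plus strand), whereas the deposited values were made on mm9. Capitals mark the match to AGATAA, an element that factors of the GATA family bind.

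Hnf4a upstream start, chr2:163506607-163506856: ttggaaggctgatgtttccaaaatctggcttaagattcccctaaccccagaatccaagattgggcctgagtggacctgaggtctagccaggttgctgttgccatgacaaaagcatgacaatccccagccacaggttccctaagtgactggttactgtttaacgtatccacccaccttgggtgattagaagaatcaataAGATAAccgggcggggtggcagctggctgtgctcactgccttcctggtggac

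Hnf4a downstream start, chr2:163546905-163547154: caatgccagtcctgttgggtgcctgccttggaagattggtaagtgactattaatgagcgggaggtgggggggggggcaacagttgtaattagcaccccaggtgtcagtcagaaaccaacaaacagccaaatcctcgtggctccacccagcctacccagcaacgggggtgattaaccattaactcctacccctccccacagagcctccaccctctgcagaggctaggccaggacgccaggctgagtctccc

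The starts lie 40298 bases apart. Searched on both strands, AGATAA occurred once, in the upstream window from position 199, and it is in 9.988% of 32851 RefSeq windows of this length. CAAAGTCCN (an HNF4 element), CAAAGGTCA (an arm of the repeat that HNF4 and other receptors bind), TTTATNG (a CDX element) and GTCTAGAC (a Smad element) had no match in these windows. Hnf4g was not matched in the promoter table.

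The known targets of HNF4 were searched in the same way, and 3 genes had CAAAGTCCN in their windows: Treh (trehalase), Alpi (intestinal alkaline phosphatase) and the hepatic target Cyp8b1. The intestinal matches are shown, in capitals with 9 bases on each side, as the stretches counted for the digestive list below.

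Treh, chr9:44672997-44673023, plus strand: aactctgagCAAAGTCCCtgagcatgt

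Treh, chr9:44673153-44673179, minus strand: caggtcagcCAAAGTCCAggctatgag

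Alpi, chr1:87101608-87101634, minus strand: agccagggaCAAAGTCCAtctctgatt

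The Treh matches lay 218 and 62 bases before its start and the Alpi match 10 bases before its start. The element was in 2 of the 12 digestive genes (16.67%), in none of 11 lipid transport, 12 fatty acid oxidation and 11 brush border genes with a window, and in 1 of 12 hepatic genes (8.333%). Over the 5 lists that was 3 of 58 genes (5.172%), against 1.373% of 27025 genes over all. The other elements were searched there too. TTTATNG was in 11 of the 58 genes (18.97%, against 11.3% over all) and AGATAA in 8 (13.79%, against 11.43%). CAAAGGTCA was in 1, the hepatic target F7 (1.724%, against 0.4847%), and GTCTAGAC in none (against 0.1998%). A match is a stretch of letters only, and binding was not measured.

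Hnf4a was the most abundant nuclear receptor transcript in these crypts. In BRAF crypts it stood at 286, 289 and 289 FPKM (288 ± 2.08, SD, n = 3). SMAD4KO_BRAF crypts had 219, 248 and 286 FPKM (251 ± 33.6, n = 3). In the libraries labelled CDX2KO_BRAF it was at 161 and 145 FPKM (153 ± 11.8, n = 2). The BRAF libraries lay close together, the SMAD4KO_BRAF libraries spread from below them up to their level, and both libraries labelled CDX2KO_BRAF lay below all others. Of all tested genes, 22.7% were lower in both than in every BRAF library, and 22.2% than in every SMAD4KO_BRAF library.

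Hnf4g was at 110, 121 and 137 FPKM in BRAF crypts (123 ± 13.6, n = 3). The SMAD4KO_BRAF libraries had 92.7, 62.4 and 81.3 FPKM (78.8 ± 15.3, n = 3). Those labelled CDX2KO_BRAF had 15.7 and 16.8 FPKM (16.2 ± 0.784, n = 2). No library overlapped between any pair of groups, and the order was BRAF, then SMAD4KO_BRAF, then CDX2KO_BRAF by label. Of all tested genes, 10.4% were lower in every SMAD4KO_BRAF library than in every BRAF library. Under the CDX2KO_BRAF label 22.7% were so against BRAF and 22.2% against SMAD4KO_BRAF. The share of genes in this order over all pairs was not counted. In bulk RNA, fewer cells that express a gene and less of its RNA per cell cannot be told apart.

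**Figure D1:**
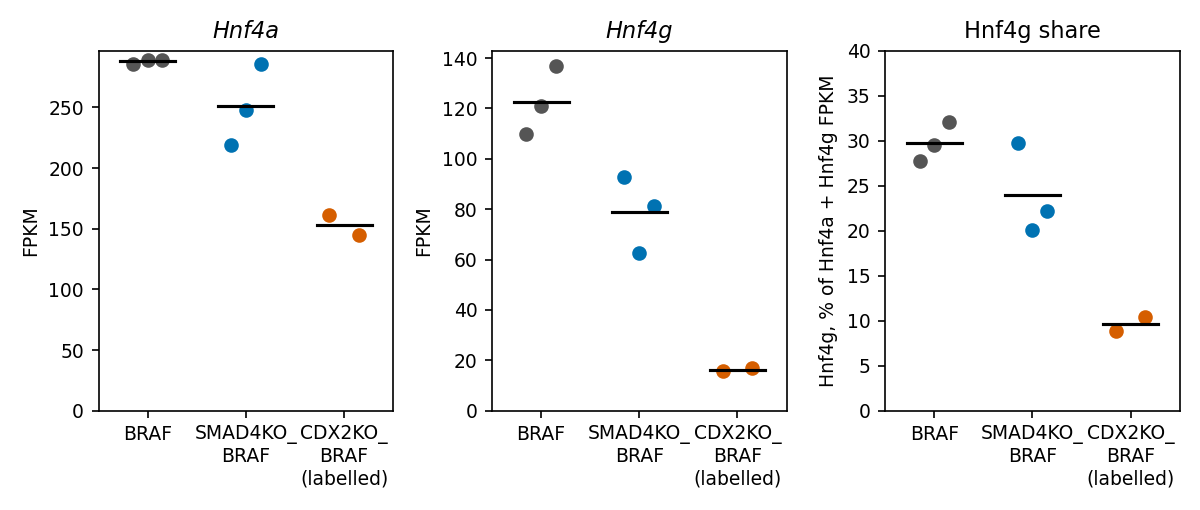
FPKM of Hnf4a (left) and Hnf4g (middle), and Hnf4g as a percentage of the summed FPKM of both (right), for each library (points) with the group mean (line). Hnf4g is 110 to 137 FPKM in BRAF, 62.4 to 92.7 in SMAD4KO_BRAF and 15.7 to 16.8 under the CDX2KO_BRAF label, with no overlap, while Hnf4a overlaps between BRAF and SMAD4KO_BRAF. Per pair of groups, 10.4% to 22.7% of tested genes are lower in every library in the same direction.

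The comparison of libraries labelled CDX2KO_BRAF with BRAF asks how the Hnf4 genes stand when floxed Cdx2 is added to the activated BRAF allele. Hnf4g fell 7.55-fold by the ratio of mean FPKM, to 13.2% of the BRAF mean. Hnf4a fell 1.88-fold, to 53.1%. On the log2(FPKM + 1) scale, the Hnf4g difference was -2.84 ± 0.18 (SE, 95% interval -3.26 to -2.41, limma, adjusted p = 0.000359). It ranked 144 from the lowest of 12084 genes. The Hnf4a difference was -0.91 ± 0.15 (95% interval -1.26 to -0.56, limma, adjusted p = 0.00915), at rank 1060. Genes called lower here made up 7.21% of those tested and genes called higher 6.89%. Both genes were lower in each library of the group than in every BRAF library, as were 22.7% of tested genes. Hnf4g passed in each of 18 other settings (adjusted p 9.1e-05 to 0.00780) and Hnf4a in 15 of them (0.00303 to 0.0923). The Hnf4a call ended with quantile normalization (-0.87, adjusted p = 0.0655), without CDX2KO_BRAF library 0 (0.0518) and without CDX2KO_BRAF library 1 (0.0923). With sex as a term the differences were -2.81 for Hnf4g and -0.96 for Hnf4a, both past the threshold.

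Against SMAD4KO_BRAF, a comparison of the additional floxed genes with each other, Hnf4g in libraries labelled CDX2KO_BRAF was again lower, 4.85-fold by mean FPKM. The log2 difference was -2.19 ± 0.18 (95% interval -2.62 to -1.77, limma, adjusted p = 0.00103), and it passed in each of 18 other settings (0.000488 to 0.0189). Hnf4a was 1.64-fold lower, with a log2 difference of -0.70 ± 0.15 (95% interval -1.06 to -0.35, limma, adjusted p = 0.0262). Hnf4a passed in 10 of 18 settings (0.00818 to 0.169), and the call ended without CDX2KO_BRAF library 0 (0.109) or 1 (0.169), without SMAD4KO_BRAF library 1 (0.0605) or 2 (0.0777), without BRAF library 2 (0.0520), and in 3 further settings. In this comparison 5.01% of tested genes were called lower and 6.6% higher, and 22.2% were lower in every library. It shares its libraries with the other comparisons, so the sets of values are not independent.

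After deletion of Smad4, neither Hnf4 gene passed the test. Hnf4g averaged 64.3% of its BRAF mean, a log2 difference of -0.64 ± 0.16 (95% interval -1.02 to -0.26, limma, adjusted p = 0.203). Each SMAD4KO_BRAF library was lower in Hnf4g than every BRAF library, as were 10.4% of tested genes. Few genes passed anywhere in this comparison, 6 lower (0.0497%) and 3 higher (0.0248%), against 1827 with an unadjusted p under 0.05. Hnf4g had an unadjusted p of 0.00501 in the same limma fit. Of the 18 other settings, weighting libraries by their quality alone brought it past the threshold (-0.75, adjusted p = 0.0374), and the others gave up to 0.456. Hnf4a differed by -0.21 ± 0.13 (95% interval -0.52 to 0.11, limma, adjusted p = 0.474), with overlapping groups, and its sign turned with quantile normalization (0.048, adjusted p = 0.946).

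**Figure D2:**
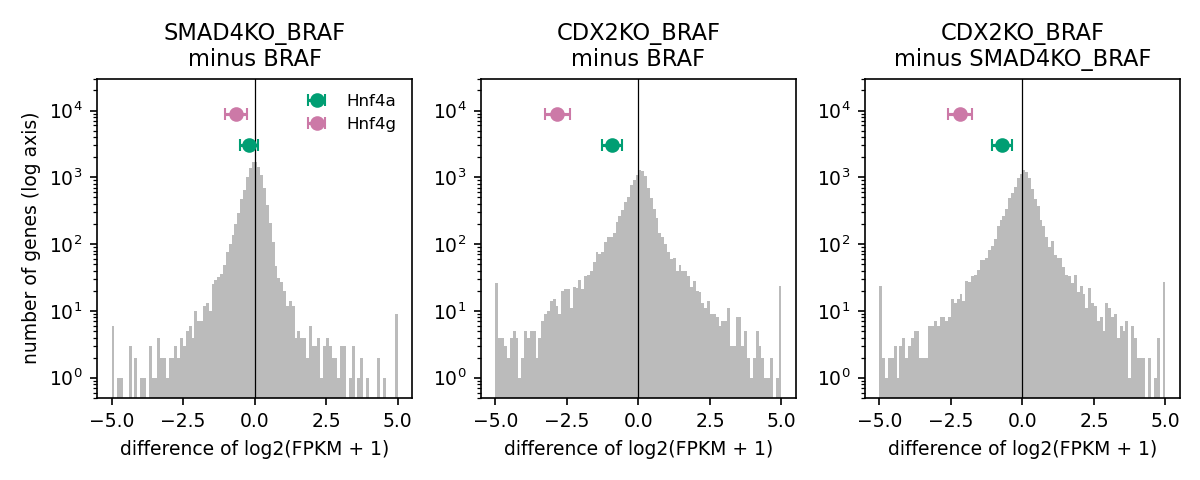
Differences of log2(FPKM + 1) of Hnf4g and Hnf4a (points with 95% intervals, placed above the bars at arbitrary heights) over the distribution of all 12084 tested genes (grey bars, log axis, differences beyond 5 in size drawn in the last bar) for the 3 comparisons, groups as labelled. Hnf4g lies at -0.64, -2.84 and -2.19 from left to right, and Hnf4a at -0.21, -0.91 and -0.70.

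The share of Hnf4g in the pair was lowest where Hnf4g itself was lowest. Hnf4g made up 27.8%, 29.5% and 32.1% of their summed FPKM in BRAF (29.8% ± 2.18, n = 3), and 29.8%, 20.1% and 22.1% in SMAD4KO_BRAF (24.0% ± 5.11, n = 3). In the libraries labelled CDX2KO_BRAF it made up 8.86% and 10.4% (9.63% ± 1.09, n = 2), below all others. Put as a ratio, there was 2.12 to 2.60 times as much Hnf4a as Hnf4g in BRAF, 2.36 to 3.98 times in SMAD4KO_BRAF, and 10.3 and 8.61 times under the CDX2KO_BRAF label. The log2 ratio of Hnf4g to Hnf4a was lower by 1.93 than in BRAF and by 1.49 than in SMAD4KO_BRAF. An exact permutation test over libraries, two-sided, gave p = 0.2 for each, the smallest that 3 against 2 allows (0.3 after adjustment over 3 pairs). Between SMAD4KO_BRAF and BRAF the ratio differed by -0.44 with overlapping libraries (exact p = 0.3, where 0.1 is the smallest possible). Both together came to 410 ± 15.5 FPKM in BRAF, 330 ± 32.3 with Smad4 floxed and 169 ± 11.0 with Cdx2 floxed by label.

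Within a group, the paralogs were not highest in the same library of SMAD4KO_BRAF. Deviations from the group mean of log2(FPKM + 1) in SMAD4KO_BRAF libraries 0, 1 and 2 were -0.19, -0.01 and 0.20 for Hnf4a, and 0.25, -0.31 and 0.06 for Hnf4g. In BRAF, Hnf4a ran from -0.01 to 0.01, whereas Hnf4g ran from -0.15 to 0.16. With 2 or 3 libraries in a group no relation between them can be tested.

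Among the 49 nuclear receptor genes listed, Hnf4a ranked first in all 8 libraries, with 20.9% to 33.4% of their summed FPKM. Hnf4g ranked second in the 6 BRAF and SMAD4KO_BRAF libraries, at 8.40% to 12.6%, and rank 12 in both libraries labelled CDX2KO_BRAF, at 2.47% and 2.43%. Over all genes, Hnf4a held ranks 183 to 343 in BRAF and SMAD4KO_BRAF and ranks 483 and 561 in the libraries labelled CDX2KO_BRAF. Hnf4g moved from ranks 635 to 1301 down to ranks 5292 and 4986. The receptor next in mean level, Esrra, a regulator of mitochondrial genes, averaged 90.8 FPKM in BRAF, 66.1 in SMAD4KO_BRAF and 65.5 under the CDX2KO_BRAF label.

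Of 34 receptors tested, 7 were called lower and 2 higher in the libraries labelled CDX2KO_BRAF than in BRAF, with a median log2 difference of -0.35 against 0.02 over all tested genes, of which 7.21% were called lower and 6.89% higher. Beside the Hnf4 genes, Nr1i3 (the xenobiotic receptor CAR) fell from 29.7 to 3.03 FPKM (log2 difference -2.95) and Vdr (the vitamin D receptor) from 71.7 to 7.78 (-3.02). Ppara, a regulator of fatty acid oxidation, Nr1d1 and Nr1d2, the clock repressors, were the other receptors called lower (-1.21, -1.38 and -0.97). Pparg and Rarg were called higher (1.55 and 0.85), but neither without BRAF library 1, BRAF library 2 or either CDX2KO_BRAF library. The 7 became 3 when either CDX2KO_BRAF library was left out, and Hnf4g, Nr1i3 and Vdr were the receptors called lower under every setting. No receptor passed between SMAD4KO_BRAF and BRAF (median -0.17, 6 with an unadjusted p under 0.05 by limma, near the 15.1% over all genes).

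**Figure D3:**
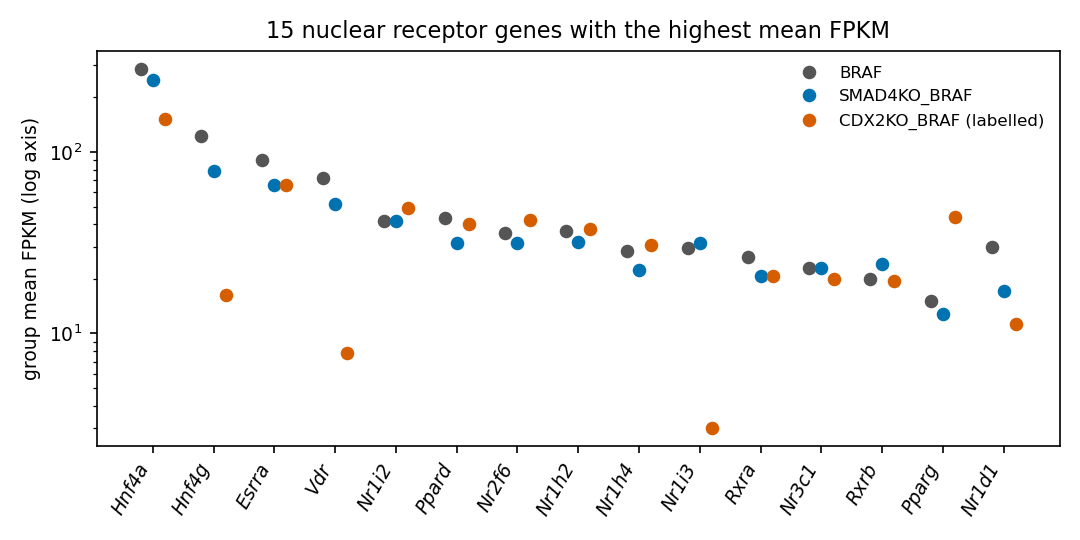
Group mean FPKM (log axis) of the 15 nuclear receptor genes with the highest mean over 8 libraries, groups as labelled. Hnf4a is highest in each group, and Hnf4g drops from 123 FPKM in BRAF to 16.2 in the libraries labelled CDX2KO_BRAF, as Vdr (71.7 to 7.78) and Nr1i3 (29.7 to 3.03) do.

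Genes known as HNF4 targets were read from lists, which describe and do not test HNF4 activity. The digestive enzyme and transporter list had the lowest median of the 5 target lists. In libraries labelled CDX2KO_BRAF, 10 of 12 were called lower than in BRAF and none higher, with a median log2 difference of -2.95, beside 7.21% called lower and a median of 0.02 over all tested genes. Sucrase-isomaltase (Sis) fell from 544 ± 196 to 3.28 ± 0.608 FPKM, a log2 difference of -6.94 ± 0.49 (limma, adjusted p = 0.000482). Treh, which splits trehalose, fell from 70.3 ± 19.6 to 1.16 ± 0.375 FPKM (-5.02 ± 0.34, adjusted p = 0.000477 by limma). Lactase (Lct) fell from 55.8 to 0.283 FPKM (-5.42), and the aminopeptidase Enpep from 218 to 10.6 (-4.36). The peptide transporter Slc15a1 (-3.13), the fructose transporter Slc2a5 (-3.65), the glucose transporter Slc5a1 (-2.76), and the brush border enzymes Mgam (-2.22), Dpp4 (-1.60) and Anpep (-1.60) were also called lower. Alpi (-2.58, adjusted p = 0.0520 by limma) and Slc2a2 (-2.61, 0.0776) did not pass. Without CDX2KO_BRAF library 1 the count was 6, and the same 6 (Sis, Treh, Lct, Enpep, Slc15a1 and Slc2a5) were called under every setting.

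In the same list, 7 of 12 genes were called lower than in SMAD4KO_BRAF (median -1.43, 5.01% over all tested genes called lower), which became 3 without CDX2KO_BRAF library 1. Between SMAD4KO_BRAF and BRAF none of the 12 passed, although all 12 differences were below 0 (median -1.35, against -0.01 over all tested genes) and 11 had an unadjusted p under 0.05 by limma (15.1% over all genes). Slc15a1 came nearest, at 39.6 ± 10.5 against 131 ± 38.7 FPKM (-1.70 ± 0.28, adjusted p = 0.138 by limma). With libraries weighted by quality, 7 of the 12 were called.

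Microvillus and brush border genes had a smaller median difference than the digestive list. In the libraries labelled CDX2KO_BRAF, 8 of 12 were called lower than in BRAF (median -1.14) and none higher, beside 7.21% and 6.89% of all tested genes. The scaffold genes Ush1c (82.9 to 33.0 FPKM, -1.30) and Pdzk1 (21.1 to 2.93 FPKM, -2.46) were called under every setting. The others were the motors Myo7b (-1.20) and Myo1a (-0.97), Slc9a3r1 (-1.33), Eps8l3 (-1.08), Cdhr2 (-1.72) and villin, Vil1 (-0.92). The 8 fell to 2 when either CDX2KO_BRAF library was left out and to 4 without the filter on low values. Against SMAD4KO_BRAF, 3 were called lower (Ush1c, Pdzk1 and Myo7b), and none when either CDX2KO_BRAF library was left out. Over all tested genes 5.01% were called lower than in SMAD4KO_BRAF. Between SMAD4KO_BRAF and BRAF no brush border gene passed. All 12 differences were below 0 with a median of -0.70, and 10 had an unadjusted p under 0.05 by limma (15.1% over all genes).

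Lipid genes were called less often than brush border genes. Their median log2 difference in the libraries labelled CDX2KO_BRAF was -1.20 against BRAF, beside -1.14 for the brush border list. Of the 15 differences 14 were below 0, and 9 had an unadjusted p under 0.05 by limma (28.8% over all genes). Of 15 lipid transport genes, 4 were called lower in the libraries labelled CDX2KO_BRAF than in BRAF (7.21% over all tested genes): Fabp1, the abundant fatty acid binding protein (5557 to 868 FPKM, -2.74), the transporter Slc27a4 (-1.95), the triglyceride enzyme Dgat1 (-1.30) and the scavenger receptor Cd36 (-1.79). None remained without CDX2KO_BRAF library 1, 2 without the filter on low values, and 8 passed with the column number as a block. Apoa1 (-1.12, adjusted p = 0.310 by limma) and Mttp (-1.61, 0.0665), both classic HNF4 targets, did not pass. Cd36 alone was called lower than in SMAD4KO_BRAF, and none remained in 6 of the 8 fits that left out 1 library. Cd36 was 1 of 15, beside 5.01% of all tested genes called lower than in SMAD4KO_BRAF. Between SMAD4KO_BRAF and BRAF no lipid gene passed. There 15 of 15 differences were below 0 (median -0.85), and 5 had an unadjusted p under 0.05 by limma (15.1% over all genes).

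Of the 14 fatty acid oxidation genes reported here, 2 were called lower in the libraries labelled CDX2KO_BRAF than in BRAF, beside 7.21% of all tested genes. Ehhadh, a peroxisomal enzyme, fell from 39.4 ± 3.67 to 16.2 ± 0.341 FPKM (-1.22), and Hadh, a mitochondrial dehydrogenase, from 211 ± 15.7 to 95.3 ± 4.64 (-1.14). The other 12 did not pass, and the median of the 14 was -0.26. Ehhadh was called under every setting, and Hadh in 16 of 18. Ehhadh (-0.58) and Hadh (-0.92) were also called lower than in SMAD4KO_BRAF, but neither with either CDX2KO_BRAF library or SMAD4KO_BRAF library 2 left out. These were 2 of 14, beside 5.01% of all tested genes called lower than in SMAD4KO_BRAF. None of the 14 passed between SMAD4KO_BRAF and BRAF, where 2 had an unadjusted p under 0.05 by limma, near the 15.1% over all genes.

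Of 14 hepatic HNF4 targets listed, 4 were expressed enough to be tested. Over all tested genes, 7.21% were called lower under the CDX2KO_BRAF label than in BRAF and 5.01% lower than in SMAD4KO_BRAF. Pck1, the gluconeogenic enzyme, was called lower in the libraries labelled CDX2KO_BRAF, at 2.34 against 59.2 FPKM in BRAF (-3.97, adjusted p = 0.0170 by limma) and 30.8 in SMAD4KO_BRAF. The call against BRAF ended without BRAF library 2 or either CDX2KO_BRAF library. The call against SMAD4KO_BRAF (adjusted p = 0.0445 by limma) held in 10 of 18 settings, and ended without those libraries and without SMAD4KO_BRAF library 0 or 1.

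**Figure D4:**
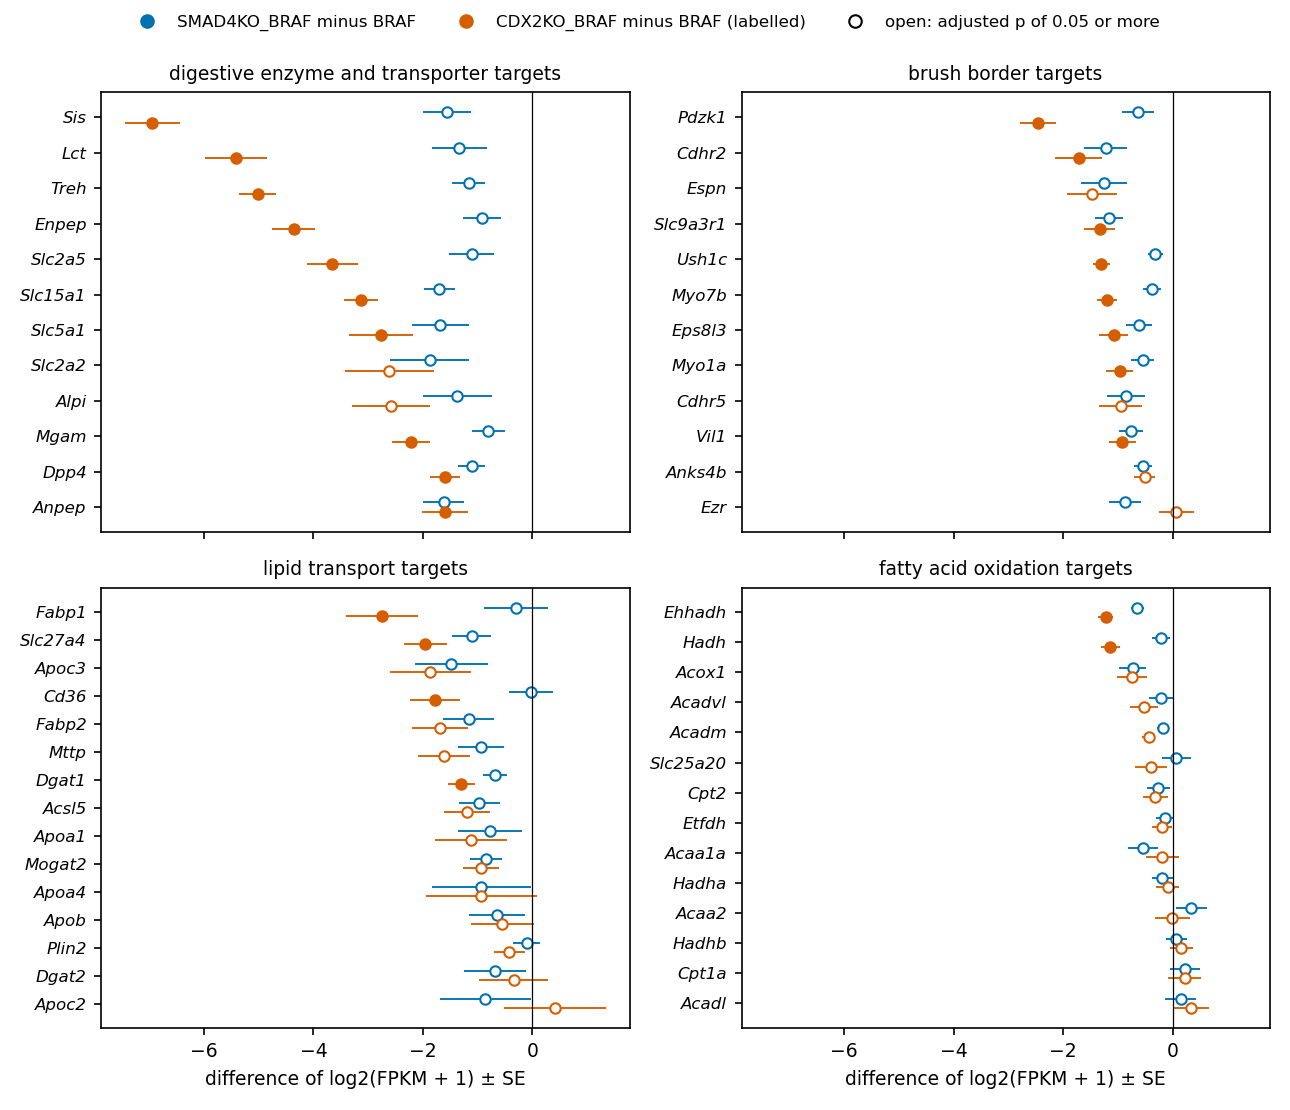
Differences of log2(FPKM + 1) ± SE against BRAF for the reported genes of 4 HNF4 target lists, for SMAD4KO_BRAF (blue) and the libraries labelled CDX2KO_BRAF (orange), filled where the adjusted p is under 0.05. In orange, 10 of 12 digestive, 8 of 12 brush border, 4 of 15 lipid transport and 2 of 14 fatty acid oxidation genes are called lower. No blue point is filled.

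Levels of target lists and of the Hnf4 genes can be set side by side within SMAD4KO_BRAF. The median log2 difference of the digestive list from the BRAF mean was -0.67, -1.40 and -1.86 in libraries 0, 1 and 2, where Hnf4a was 219, 248 and 286 FPKM and Hnf4g 92.7, 62.4 and 81.3. In BRAF the medians were 0.52, -0.27 and -0.16, and in the libraries labelled CDX2KO_BRAF they were -2.71 and -3.18. In SMAD4KO_BRAF the library with the most Hnf4a thus had the lowest digestive median. The fatty acid oxidation medians there were 0.14, -0.41 and -0.12, in the order of Hnf4g. The other target lists were not in that order. Their medians in libraries 0, 1 and 2 were 0.15, -0.92 and -1.31 for lipid transport and -0.32, -0.83 and -1.08 for brush border. For the 4 tested hepatic genes they were -0.04, -0.54 and -1.41. In BRAF, Hnf4g was 110, 121 and 137 FPKM, and the fatty acid oxidation medians were 0.0069, -0.14 and 0.11, not in its order. The SMAD4KO_BRAF libraries also differed otherwise. Library 0 was the only male one of its group, and T cell markers summed to 39.2, 126 and 354 FPKM in libraries 0, 1 and 2. A relation of these lists to the Hnf4 genes, to sex or to other cells was not tested.

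The coregulators of HNF4 are read next. In the libraries labelled CDX2KO_BRAF, 2 of 13 reported were called higher than in BRAF, the coactivator Ncoa3 (0.74) and the histone deacetylase Hdac3 (0.71), beside 6.89% of all tested genes, and none lower. Neither remained without CDX2KO_BRAF library 1. Ncoa3 and Hdac3 were also called higher than in SMAD4KO_BRAF, and neither was without CDX2KO_BRAF library 1. Over all tested genes, 7.21% were called lower and 6.89% higher than in BRAF, and 5.01% lower and 6.6% higher than in SMAD4KO_BRAF. Of the 9 tested receptors that share the direct repeat bound by HNF4, Ppara was called lower and Pparg higher in both comparisons. Against BRAF neither call held without BRAF library 1, BRAF library 2 or either CDX2KO_BRAF library, and against SMAD4KO_BRAF neither held without SMAD4KO_BRAF library 0 or 2 or either CDX2KO_BRAF library, nor Ppara without BRAF library 2. None of either list passed between SMAD4KO_BRAF and BRAF, where 1 coregulator and 2 of these receptors had an unadjusted p under 0.05 by limma (15.1% over all genes).

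Among 12 transcription factors known to act with HNF4 in the gut, Isx, a homeobox repressor of carotenoid uptake, fell from 72.1 ± 7.94 to 2.20 ± 0.242 FPKM in the libraries labelled CDX2KO_BRAF (-4.51 ± 0.14, limma, adjusted p = 8.69e-06). The pioneer factors Foxa1 (11.9 to 40.7 FPKM, 1.70), Foxa3 (9.97 to 28.9 FPKM, 1.45) and Foxa2 (0.87), with Klf4 (1.37) and Cdx2, were called higher (5 of 12, beside 6.89% of all tested genes), which became 2 (Foxa1 and Foxa3) without CDX2KO_BRAF library 1. Isx, Foxa1 and Foxa3 were called under every setting. In the BMP and Smad list, Id1 (2.40), Id2 (2.32), Id3 (1.45) and Bmpr1a (0.64) were called higher and Smad7 (-0.97) lower than in BRAF, and 1 of the 4 higher calls remained without CDX2KO_BRAF library 0. The Smad7 call ended without BRAF library 0 or 1 or either CDX2KO_BRAF library. Over all tested genes, 7.21% were called lower and 6.89% higher under the CDX2KO_BRAF label than in BRAF. In SMAD4KO_BRAF, Smad4 was called lower than in BRAF, as the floxed gene that defines the group. The BMP target Id3 (34.6 to 7.88 FPKM, -2.01, limma, adjusted p = 0.0204) was the only other member called lower there, beside 0.0497% of all tested genes. Smad4 passed in all 18 settings, and the Id3 call ended without BRAF library 0, SMAD4KO_BRAF library 0 or SMAD4KO_BRAF library 1. None of the 12 partner factors passed there, and 4 had an unadjusted p under 0.05 by limma (15.1% over all genes).

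Markers of other cell types were summed per library. Gastric markers summed to 0.448 to 10.3 FPKM in BRAF and 0.233 to 2.62 in SMAD4KO_BRAF, but to 2396 and 8094 in libraries 0 and 1 labelled CDX2KO_BRAF. Of the 8 listed, 4 and 6 were at 1 FPKM or more in these libraries, against 0 to 3 in the others, and 1 was at 0 in both. In libraries 0 and 1 with this label Hnf4g was 15.7 and 16.8 FPKM and Hnf4a 161 and 145. Paneth cell markers summed to 9157 to 16645 FPKM in BRAF, 15814 to 24798 in SMAD4KO_BRAF and 4938 to 7151 in those labelled CDX2KO_BRAF, with 6 of 6 at 1 FPKM or more throughout. By limma, 2 of the 6 were called lower than in BRAF under the CDX2KO_BRAF label, beside 7.21% of all tested genes. Neither call remained without BRAF library 0 or 2, without the filter on low values, with only the 2 groups in the fit, or with the column number as a block. Against SMAD4KO_BRAF, 3 of the 6 were called lower (median -2.21), beside 5.01% of all tested genes, and none without the filter on low values. Both counts also rest on CDX2KO_BRAF library 1, and leaving it out keeps only 1 in that group. None of the 6 was called lower in SMAD4KO_BRAF than in BRAF, where 0.0497% of all tested genes were. The summed ranges of T cell, mesenchymal and crypt base stem cell markers overlapped between all groups. T cell markers summed to 26.2 to 685, 39.2 to 354 and 8.87 to 49.2 FPKM, mesenchymal markers to 5.67 to 70.9, 7.59 to 35.3 and 2.16 to 8.93, and crypt base stem cell markers to 196 to 475, 289 to 547 and 241 to 463 in the same order of groups. Gene by gene, all 8 T cell and all 4 tested mesenchymal markers were lower under the CDX2KO_BRAF label than in BRAF (medians -1.88 and -1.54), and none was called. Of the 6 stem cell markers, 2 were called lower than in SMAD4KO_BRAF, beside 5.01% of all tested genes, and 1 without the filter on low values. The part of these cell types in the Hnf4 differences was not tested.

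Hnf4aos, a gene antisense to Hnf4a, was at 0.663 to 1.59 FPKM in BRAF, 0.700 to 1.37 in SMAD4KO_BRAF, and 0.0535 and 0 under the CDX2KO_BRAF label. The library kit named in the labels does not mark strand, so reads of Hnf4a and of its antisense partner cannot be told apart where they overlap.

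The genes whose pattern over the 8 libraries was most like each Hnf4 gene were found among 8378 tested genes with a mean of at least 5 FPKM. For Hnf4g, the highest Pearson r of log2(FPKM + 1) belonged to Scrn2 (0.996), H2-T3 (0.993), Pnp2 (0.991), Tldc2 (0.991) and Adh6a (0.991). The lowest r belonged to Foxa1 (-0.994), Sema3c (-0.989) and Wars (-0.987). Adh6a, an alcohol dehydrogenase, averaged 142 FPKM in BRAF, 61.1 in SMAD4KO_BRAF and 2.18 under the CDX2KO_BRAF label, and H2-T3, a non-classical MHC gene, averaged 40.9, 24.4 and 0.413. For Hnf4a they were Slc25a15 (0.987), Camk1d (0.983), Itsn1 (0.983), Pde5a (0.982) and Gnpda1 (0.974) at the top, and Pqlc1 (-0.990), Ern2 (-0.987) and Sgsm3 (-0.984) at the bottom. Slc25a15, a mitochondrial ornithine carrier, averaged 89.5, 76.2 and 38.0 FPKM in that order, and Ern2, a stress sensor of mucus cells, ran the other way at 14.3, 21.9 and 59.2. These correlations describe 8 libraries that share their groups.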

How the data were processed

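RNA of jejunal crypts was sequenced in 8 libraries used here. The deposited FPKM table lists 1 value per gene and library; per the submitters' processing notes, TopHat2 2.1.0, Cuffnorm 2.2.1 and Cuffdiff 2.2.1 were used with mm9, and the role of each is not given in the sources used here. Columns were tied to groups by name, and 3 columns named as controls matched no labelled sample and were not used. Genes that reached 1 FPKM in 2 or more libraries were tested with limma 3.58.1 (R 4.3.3) on log2(FPKM + 1), with 1 mean per group over all 8 libraries, a mean-variance trend and Benjamini-Hochberg adjustment over 12084 genes per comparison. A gene was called at an adjusted p under 0.05. A fold on this scale understates changes of low genes. The fit was tested on simulated data.

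The labels do not say that libraries came from separate animals, so p-values measure the spread between libraries. Gene lists were written from known biology, and named genes are the Hnf4 genes, called list members and those nearest the threshold, and the genes with the highest or lowest correlation. A member named beside its list for its known role was named after its values were seen. The Hnf4 genes and all lists were chosen with earlier results of these data known. A listed fatty acid oxidation gene and a listed coregulator are not reported here and are left out of their lists' counts, medians and figure. The ratio of the paralogs was tested by exact permutation (scipy 1.17.1). Of 18 other settings, 8 left out 1 library each. Where 1 CDX2KO_BRAF library was left, it was assumed to vary like the other groups. Promoter windows are RefSeq's on GRCm38.p6.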

Additional observations from a re-analysis of the deposited data

How the results depend on the processing

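The fall of Hnf4g in the libraries labelled CDX2KO_BRAF kept its direction and call in all 18 settings against BRAF and against SMAD4KO_BRAF. Leaving out 1 library at a time gave -2.91 to -2.75 and -2.35 to -2.07 for Hnf4g, -0.99 to -0.83 and -0.80 to -0.61 for Hnf4a, and, for SMAD4KO_BRAF against BRAF, -0.77 to -0.49 for Hnf4g and -0.30 to -0.11 for Hnf4a. Hnf4a lost its call against BRAF with quantile normalization (-0.87), and against SMAD4KO_BRAF with quantile normalization (-0.92), with only the 2 groups in the fit (-0.70) and with the replicate block (-0.65). Quantile normalization turned the sign of Hnf4a in SMAD4KO_BRAF (0.048), and library weights brought Hnf4g past the threshold there (-0.75). The cause was not tested. The ratio of Hnf4g to Hnf4a kept its sign in every setting run.

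Library weights raised the genes called lower and higher in SMAD4KO_BRAF to 655 and 414, the higher calls of CDX2KO_BRAF against BRAF to 1321, and its calls against SMAD4KO_BRAF to 1047 lower and 1400 higher. With sex as a term, 67 genes were called lower and 11 higher in SMAD4KO_BRAF, and without the filter 3 were lower. The block on column numbers gave 481 higher calls against BRAF, and 392 lower and 413 higher against SMAD4KO_BRAF. Same-numbered BRAF and SMAD4KO_BRAF libraries correlated at 0.241, -0.047 and 0.003 in their deviations. So few libraries cannot decide whether the numbers pair them, and columns could not be tied to single titles. The main fit assumed no pairing. Leaving out 1 library gave 2 to 18 lower and 2 to 7 higher calls for SMAD4KO_BRAF, 242 to 936 and 167 to 897 for CDX2KO_BRAF against BRAF, and 110 to 610 and 124 to 813 against SMAD4KO_BRAF. Of 1080 list counts under other settings, 924 stayed within 1.5 times, where a count of 0 in both fits was scored as unchanged. Many list counts were 0 in the main fit, so this share does not measure how firm the calls were.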
